A study of Homo sapiens with 8 samples.

Results

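The kinesin, myosin and dynein motor genes were chosen by symbol alone, with earlier results of these data known. All listed genes were taken whose name is that of a kinesin (KIF or KIFC), an unconventional myosin (MYO), a myosin II or muscle-type myosin heavy chain (MYH), a cytoplasmic dynein subunit (DYNC) or an axonemal dynein heavy chain (DNAH). Of 57756 listed genes, 101 qualified, namely 42 kinesins, 25 MYO genes, 14 MYH genes, 7 DYNC genes and 13 DNAH genes, and all 101 are protein coding in RefSeq. RNA that co-purified with the small-subunit ribosomal protein RPS6 was sequenced beside total input RNA from the same cells, with 1 RPS6 RNA immunoprecipitation (RIP) library and 1 input library for each of 4 human cancer cell lines. The lines were Hep3B (hepatocellular carcinoma), HCT116 (colorectal carcinoma), DU145 (prostate carcinoma) and SW1990 (pancreatic adenocarcinoma). The sample titles and the paper call the liver line Hep3B whereas another label names Huh7, and the name Hep3B is used here.

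Motor proteins turn ATP hydrolysis into movement along the cytoskeleton. Kinesins carry vesicles and organelles, mostly toward the plus ends of microtubules, or build and divide the mitotic spindle. Cytoplasmic dynein moves toward the minus ends with its cofactor dynactin, axonemal dyneins bend cilia and flagella, and myosins pull on actin filaments. Some motors work as complexes in which a long heavy chain binds shorter chains, such as light or intermediate chains. RNA bound to RPS6 is read here as RNA that co-purifies with ribosomes or their subunits, not as a rate of protein synthesis.

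Input libraries held 35796159 to 54209614 fragments and RIP libraries 34630338 to 42610124, so that the limit set by a count of 0 (3 fragments) was 0.0553 to 0.0866 FPM (fragments per 1000000 fragments of the library). Marker genes did not bear out every cell line label. The 6 liver markers summed to 6563 FPKM (FPM per kilobase of transcript) in the Hep3B input and to at most 1.24 FPKM in any other input. The colon marker CDX2 stood at 86.6 FPKM in the library labelled SW1990 against 6.25 in that labelled HCT116, while MUC1, listed for pancreatic duct, was at 76.6 FPKM in the library labelled DU145 against 1.16 in that labelled SW1990, although KRT19 of the same list went the other way (85.8 against 229). The prostate marker HOXB13 was listed at 0 in DU145. The names HCT116, DU145 and SW1990 below are therefore those of the labels. RIP was compared with input within a line.

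Motor mRNAs took a larger share of the RIP library than of the input in each of the 4 lines. All 101 genes together held 0.337% of the fragments in the Hep3B input and 0.520% in its RIP library. The share went from 0.421% to 1.17% in HCT116, from 0.565% to 1.18% in DU145 and from 0.408% to 0.966% in SW1990. The ratios of RIP to input share were thus 1.55, 2.79, 2.09 and 2.37, lowest in Hep3B, with 1 library on each side. By contrast, 54 partner genes of motors (light chains, dynactin subunits, cargo adaptors and calmodulins) held 0.455%, 0.538%, 0.554% and 0.624% of the inputs, in the same order of lines, and 0.359%, 0.372%, 0.402% and 0.422% of the RIP libraries. Their ratios were 0.789, 0.692, 0.726 and 0.676, below 1 in all 4 lines. Abundant genes weigh most in both sums. In HCT116, DYNC1H1 alone went from 137 to 1970 FPM, and all 101 motor genes from 4208 to 11740. In Hep3B, CALM2 alone went from 605 to 131 FPM, and all 54 partners from 4554 to 3591.

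**Figure D1:**
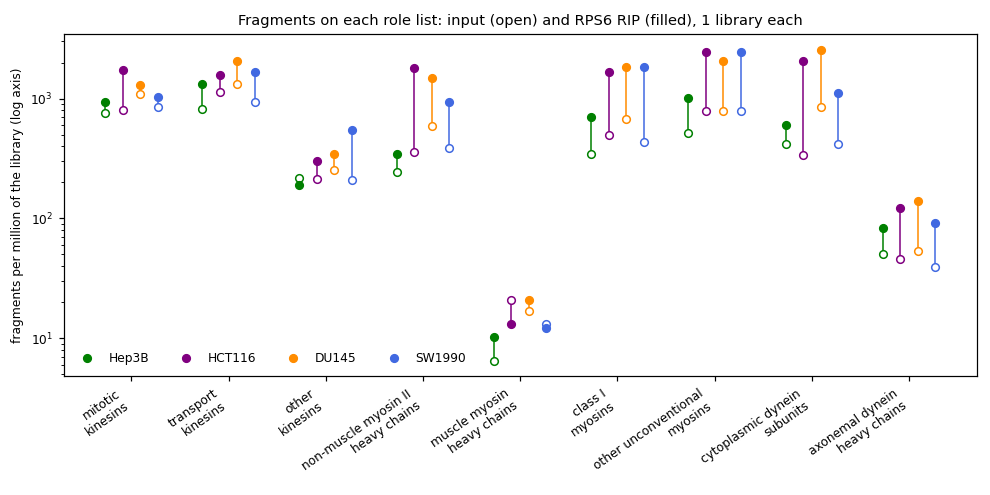
FPM of each library (log axis) on the 9 role lists of motor genes, with open points for the input and filled points for the RPS6 RIP library of each cell line. All lists but the other kinesins and the muscle myosins lie higher in the RIP library in all 4 lines, and muscle myosins reach at most 20.7 FPM.

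Gene by gene, 86 of the 101 motor genes had a mean of at least 10 counts and were tested together with all other such genes. The 15 that were not tested (MYH1, MYH2, MYH4, MYH6, MYH7, MYH8, MYH13, MYO1H, MYO3B, MYO18B, KIF2B, KIF4B, KIF19, KIF25 and DNAH9) reached at most 0.519 FPKM in any library. With edgeR's quasi-likelihood test, the cell line as a block and Benjamini-Hochberg adjustment over 19921 genes, 45 motor genes were higher in RIP (52.3% of those tested), 10 were lower (11.6%) and 31 did not pass. Over all genes tested, 26.5% were called higher and 24.9% lower. The median log2 fold change was 1.24 over the motor genes and -0.05 over all genes. Of the 45 higher genes, 40 had a higher FPM in RIP than in input in all 4 lines, and all 10 lower genes a lower FPM in all 4. The calls rest on the same counts, so these directions are no separate support. The p-values measure only the spread between these 4 pairs of libraries, since nothing says that any line was grown more than once. Without the cell line as a block, 14 motor genes were higher and 2 lower. All 55 calls held without Hep3B, whereas DNAH2, DNAH12, DNAH17, KIF24 and KIF27 lost theirs without HCT116, DNAH12, KIF7, KIF11, KIF13A and KIF24 without DU145, and KIF11, KIF13A, KIF24, KIF27 and MYO1G without SW1990.

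Calls followed family and role unevenly. Among 38 kinesins tested, 20 were higher and 7 lower, among 29 myosins 17 were higher and 0 lower, and among 19 dyneins 8 were higher and 3 lower. All 3 non-muscle myosin II heavy chains were higher, as were 10 of 15 unconventional myosins outside class I, 4 of 7 class I myosins and 9 of 15 transport kinesins. So were 6 of 12 axonemal dyneins, 6 of 11 other kinesins, 5 of 12 mitotic kinesins and 2 of 7 cytoplasmic dynein subunits. The last share, 28.6%, was near the 26.5% of all genes. Lower calls fell on 3 of 7 cytoplasmic dynein subunits, 3 of 12 mitotic kinesins, 2 of 15 transport kinesins and 2 of 11 other kinesins. For these kinesin lists the shares were 25.0%, 13.3% and 18.2%, at or below the 24.9% of all genes within rounding. None of the 4 muscle-type heavy chains tested passed in either direction. The 0 lower calls among myosins did not hold in every fit. MYH16 was called lower with DESeq2 and with no minimum on counts (adjusted p = 0.0435 and 0.0308), the class I myosin MYO1F with limma on log2(FPKM + 1) and on log2(FPKM + 0.1) (adjusted p = 0.0316 and 0.0199), and MYO6 once the length trend was removed (adjusted p = 0.00267).

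**Figure D2:**
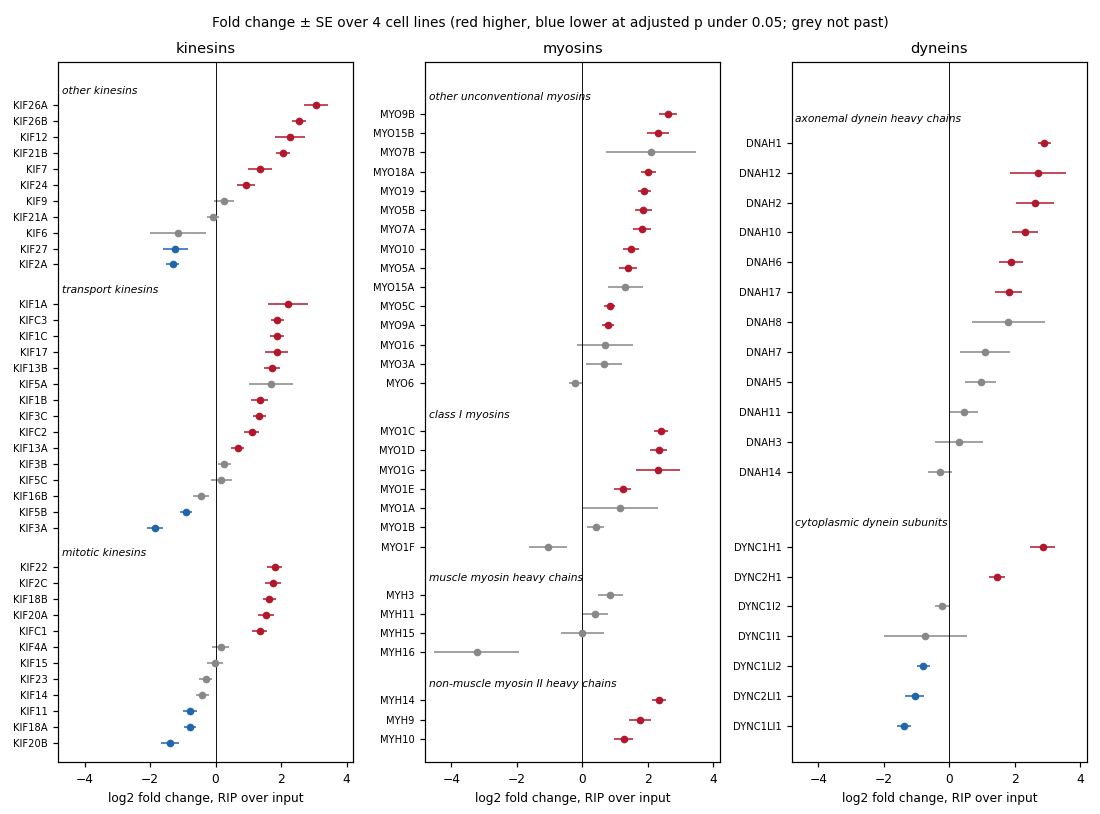
Log2 fold change of RIP over input for the 86 motor genes tested, with bars of 1 SE from edgeR's fit over 4 pairs of libraries, grouped by role and coloured by call at an adjusted p under 0.05. Myosins hold 17 higher and 0 lower genes, while kinesins and dyneins hold both.

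Cytoplasmic dynein was split within 1 complex. DYNC1H1, the motor heavy chain of cytoplasmic dynein 1 (chr14:102430864-102532565, hg19), stood at 13.7 FPKM in the Hep3B input, 10.4 in HCT116, 41.7 in DU145 and 23.5 in SW1990. In the RIP libraries it reached 70.9, 251, 263 and 115 FPKM in the same order. Every RIP FPKM lay above every input FPKM, and the log2 fold change was 2.85 ± 0.38 (SE; edgeR adjusted p = 0.000147). In FPM the RIP value exceeded the input in each line, but the ranges overlapped (479 in the Hep3B RIP library, 562 in the DU145 input). The light intermediate chain DYNC1LI1, which links the heavy chain to cargo adaptors, went the other way, from 44.4, 53.7, 32.3 and 47.3 FPM in the inputs to 17.4, 20.4, 8.86 and 9.58 in RIP. In FPM these groups did not overlap, and the log2 fold change was -1.38 ± 0.22 (adjusted p = 0.000486). On the FPKM scale they did, with 16.2 in the HCT116 RIP library against 15.3 in the DU145 input. DYNC1LI2, the other light intermediate chain and the DYNC gene with the highest mean input FPKM, also fell, from 155, 99.8, 206 and 137 FPM to 55.2, 50.1, 82.7 and 79.0 (log2 fold change -0.80 ± 0.20, adjusted p = 0.00685). On the FPKM scale DYNC1LI2 differed in direction between lines, from 62.3, 34.9, 75.7 and 41.9 to 57.0, 35.2, 53.6 and 48.7. The intermediate chain DYNC1I2, which binds dynactin, did not pass (-0.23 ± 0.21, adjusted p = 0.382).

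The difference between DYNC1H1 and DYNC1LI1 in log2((RIP FPKM + 1)/(input FPKM + 1)) was 3.27, 5.03, 3.53 and 3.39 from Hep3B to SW1990, with a mean of 3.81 ± 0.83 (SD, n = 4 lines). An exact sign-flip test over 4 lines cannot go below p = 0.125. This difference has the same sign in 4 of 4, but both genes met a naming rule that fixed the direction of each ratio in all 4 lines. The shared sign is therefore no support. Dynein 2, the motor of retrograde transport within cilia, showed a like split at lower levels. Its heavy chain DYNC2H1 had 2.54, 4.45, 33.8 and 13.8 FPM in the inputs and 3.61, 8.92, 113 and 30.3 in RIP (log2 fold change 1.47 ± 0.24, adjusted p = 0.000587). Its light intermediate chain DYNC2LI1 had 10.9, 11.0, 5.20 and 10.3 in the inputs and 3.70, 5.14, 1.74 and 3.92 in RIP (-1.06 ± 0.29, adjusted p = 0.0121), a call lost with the length trend removed (adjusted p = 0.0979) and with limma on log2(FPKM + 0.1) (adjusted p = 0.0528). The list of cytoplasmic dynein subunits as a whole went from 419 to 604 FPM in Hep3B, from 336 to 2079 in HCT116, from 858 to 2546 in DU145 and from 420 to 1112 in SW1990. DYNC1H1 alone rose by more than the list in each line, from 145, 137, 562 and 174 FPM to 479, 1970, 2326 and 973. The other subunits together therefore held fewer FPM in RIP than in input in each line.

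Axonemal dynein heavy chains were scarce, as DNAH1 illustrates. This inner-arm heavy chain had 0.198, 0.677, 0.298 and 0.945 FPKM in the inputs and 2.71, 5.12, 2.21 and 8.96 in RIP, again with no overlap, and its log2 fold change of 2.91 ± 0.20 was the highest among the motor genes with the same direction on the FPKM scale in all 4 lines (adjusted p = 1.23e-05). DNAH12 was also called higher (2.71 ± 0.85, adjusted p = 0.022), from 4, 7, 0 and 12 fragments to 16, 34, 10 and 36, but lost the call without HCT116 or without DU145 (adjusted p = 0.0949 and 0.0632), and with the length trend removed (adjusted p = 0.0705). DNAH14 was the most abundant of the list, at 28.8, 24.4, 19.6 and 23.7 FPKM in the inputs and 22.8, 8.79, 26.5 and 4.90 in RIP, and did not pass (-0.29 ± 0.37, adjusted p = 0.539). The fragments and FPKM of DNAH14 imply an effective length of 1.04 kb, far short of a complete axonemal heavy chain, against 15.2 kb for DNAH1. Of the ciliary markers, FOXJ1 was at 8.11 FPKM in the Hep3B input and TEKT1 was listed at 0 in all 8 libraries. Whether whole axonemal dynein transcripts were present was not tested.

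All 3 heavy chains of non-muscle myosin II, which forms the contractile filaments of stress fibres and of the cleavage furrow, were higher in RIP. MYH9 had 22.4, 30.4, 58.0 and 52.9 FPKM in the inputs and 40.5, 205, 206 and 159 in RIP (log2 fold change 1.76 ± 0.33, adjusted p = 0.00128). The Hep3B RIP value lay within the range of the inputs, and the other 3 lay above it. MYH10 rose from 39.0, 11.5, 25.0 and 10.8 FPKM to 66.6, 49.3, 81.6 and 47.3 with no overlap (1.26 ± 0.29, adjusted p = 0.00463). MYH14, chosen here after its values were seen to complete the list, rose from 5.71, 9.54, 3.09 and 3.55 FPKM to 21.6, 80.6, 16.9 and 24.6 (2.33 ± 0.22, adjusted p = 2.16e-05). Muscle-type heavy chains stayed near the bottom of the range, with summed levels of 6.48 to 20.7 FPM in the inputs. MYH15, the most abundant of them, had 0.129, 1.53, 1.52 and 0.175 FPKM in the inputs and 0.244, 2.31, 1.13 and 0.0851 in RIP (adjusted p = 0.995). The muscle markers DES, ACTA1, MYOD1 and TTN summed to 0.183 to 1.72 FPKM in the inputs, with MYOD1 listed at 0.

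Unconventional myosins that passed were all higher in RIP. MYO1C, a class I myosin that tethers membranes to actin, had 30.7, 60.2, 93.7 and 47.8 FPKM in the inputs and 148, 347, 422 and 372 in RIP (log2 fold change 2.40 ± 0.23, adjusted p = 2.07e-05). MYO9B, which carries a RhoGAP domain beside its motor, went from 18.0, 21.0, 16.3 and 19.4 FPKM to 56.6, 272, 84.6 and 145 (2.60 ± 0.27, adjusted p = 3.3e-05). For both genes the lowest RIP value exceeded the highest input value, and HCT116 showed the widest gap for MYO9B. MYO19, a myosin of the mitochondrial outer membrane, had the highest mean input FPKM of any motor gene over the 2 tables and rose from 46.8, 51.5, 68.8 and 92.8 FPKM to 141, 219, 201 and 321 (1.89 ± 0.20, adjusted p = 3.92e-05). MYO1D, a class I myosin known for its part in left-right asymmetry, rose from 6.08, 12.4, 9.87 and 23.0 FPKM to 42.4, 136, 34.8 and 226 (2.33 ± 0.25, adjusted p = 4.06e-05). MYO6, the myosin that walks toward the minus ends of actin filaments, did not pass. Its FPM was 65.1, 51.7, 17.6 and 40.7 in the inputs and 36.8, 44.9, 12.1 and 24.9 in RIP (-0.22 ± 0.20, adjusted p = 0.393), whereas its FPKM exceeded that of the input in the 4 RIP libraries, with a mean log2 ratio of 0.39. MYO1A, the brush border myosin, was close to the limit of detection, with 0, 15, 1 and 20 fragments in the inputs and 2, 2, 13 and 38 in RIP (adjusted p = 0.442).

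Transport kinesins were mostly higher, with exceptions among the best known. KIF5B, the ubiquitous kinesin-1 heavy chain, had 198, 397, 362 and 348 FPM in the inputs and 115, 125, 149 and 146 in RIP, lower in every line and with no overlap (log2 fold change -0.90 ± 0.19, adjusted p = 0.00272). On the FPKM scale the Hep3B pair was level, at 35.8 and 36.4, and the other lines went from 66.1, 60.2 and 61.6 to 38.4, 41.6 and 40.5. KIF3A, a motor subunit of heterotrimeric kinesin-2, was the motor gene called lower with the largest decrease, from 11.1, 18.7, 24.1 and 26.6 FPM to 2.54, 4.15, 4.78 and 5.90 (-1.85 ± 0.23, adjusted p = 9.11e-05). The gene with which KIF3A pairs in that motor, KIF3B, did not pass (0.27 ± 0.20, adjusted p = 0.283), and KIF3C, an alternative partner, was higher (1.33 ± 0.20, adjusted p = 0.000304). Both KIF3B and KIF3C were picked after their values were seen. KIF13B, a kinesin-3 family member, rose from 8.21, 2.55, 1.65 and 0.979 FPKM to 24.2, 16.0, 7.61 and 5.26 (1.72 ± 0.25, adjusted p = 0.000215).

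Among the other kinesins, KIF26B, a kinesin linked to cell adhesion and Wnt signalling, rose from 0.131, 0.384, 3.33 and 0.214 FPKM to 0.708, 1.65, 16.1 and 2.14 (2.55 ± 0.22, adjusted p = 1.39e-05). Its paralogue KIF26A had the highest fold change of all motor genes (3.07 ± 0.35, adjusted p = 5.67e-05), but that value rests on 3 lines. KIF26A went from 2.88, 0.662 and 5.85 FPKM to 21.4, 5.35 and 68.2 in HCT116, DU145 and SW1990, and had 4 fragments in the Hep3B input and 2 in the Hep3B RIP library. KIF2A, which depolymerises microtubule ends, fell from 54.7, 86.3, 101 and 81.3 FPM to 23.9, 19.2, 34.9 and 24.1 (-1.31 ± 0.19, adjusted p = 0.000254), with no overlap. Of the 55 motor genes called, 34 kept the call in each alternative fit except that without the block. They were 31 higher genes and 3 lower genes, and the lower ones were KIF3A, KIF2A and DYNC1LI1.

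Mitotic kinesins were divided. KIF22, which pushes chromosome arms away from the poles, had 41.7, 46.0, 34.2 and 46.7 FPKM in the inputs and 104, 298, 112 and 152 in RIP (1.80 ± 0.22, adjusted p = 9.07e-05). KIFC1, a minus-end-directed kinesin that focuses spindle poles, went from 36.7, 21.6, 29.4 and 35.9 FPKM to 59.1, 92.2, 60.3 and 78.0 (1.35 ± 0.23, adjusted p = 0.000694). Both sets of RIP values lay above all inputs. KIF11, the kinesin-5 that slides spindle microtubules apart, was lower, with 100.4, 65.7, 190 and 120 FPM in the inputs and 44.5, 46.0, 74.1 and 44.9 in RIP (-0.77 ± 0.22, adjusted p = 0.0128). It lost the call without DU145 or without SW1990 (adjusted p = 0.0669 and 0.0585), and its FPKM in HCT116 was higher in RIP, at 16.1 against 12.2. KIF23, a kinesin of the central spindle needed for cytokinesis, did not pass, with 20.2, 23.7, 42.3 and 23.8 FPKM in the inputs and 15.9, 31.2, 45.1 and 16.7 in RIP (adjusted p = 0.232).

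Paralogues that share a number gave opposite calls in 4 of 45 pairs, all of them kinesins (KIF18A and KIF18B, KIF20A and KIF20B, KIF2A and KIF2C, KIF3A and KIF3C). No myosin was called lower in the main fit, so no pair of myosins could give opposite calls. Genes of these pairs outside the naming rule were chosen after their values were seen. KIF18A and KIF18B both regulate microtubule plus ends in mitosis. KIF18A had 50.1, 71.5, 36.6 and 46.5 FPM in the inputs and 23.9, 37.3, 16.8 and 18.1 in RIP (-0.77 ± 0.19, adjusted p = 0.00569), and KIF18B had 81.9, 79.6, 116 and 62.2 in the inputs and 183, 197, 242 and 195 in RIP (1.65 ± 0.19, adjusted p = 6.47e-05). KIF20A, needed in cytokinesis, went from 62.0, 78.6, 104 and 74.5 to 128, 316, 181 and 143 (1.54 ± 0.25, adjusted p = 0.000499), whereas KIF20B, another kinesin-6 of late mitosis, went from 41.3, 43.2, 83.8 and 103 to 14.6, 10.3, 46.2 and 17.3 (-1.40 ± 0.27, adjusted p = 0.00152). KIF2C, the depolymerase of the centromere, rose from 42.4, 67.5, 50.4 and 37.3 to 77.1, 280, 124 and 103 (1.77 ± 0.24, adjusted p = 0.000177). In log2 FPKM ratio, KIF18A minus KIF18B was -0.84, -1.70, -1.55 and -2.30 from Hep3B to SW1990, KIF20A minus KIF20B was 2.01, 4.08, 0.99 and 2.26, and KIF2A minus KIF2C was -1.79, -4.37, -2.50 and -3.24. The sign of each difference was the same in all 4 lines, but these pairs were picked for their opposite calls, so the shared sign is no separate support.

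**Figure D3:**
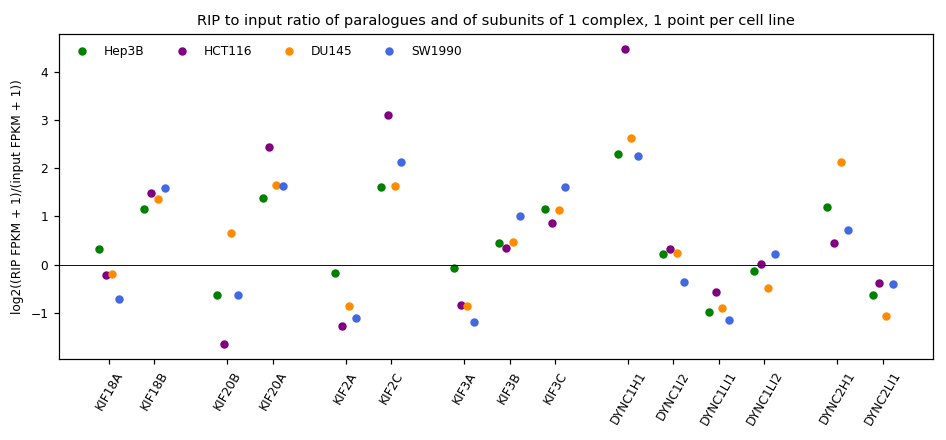
Log2 ratio of RIP FPKM + 1 to input FPKM + 1 for kinesin paralogues and for subunits of dynein 1 and dynein 2, with 1 point per cell line. In every line KIF18B, KIF20A, KIF2C and KIF3C lie above their paralogues and the dynein heavy chains above their light intermediate chains.

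Overlap with other genes bears on these values. In the files 77 of the 101 motor genes carry a locus that is shared with at least 1 other listed gene, among them KIF2C, KIF20A (with BRD8 and CDC23) and KIF2A (with IPO11 and DIMT1), and the sources do not say whether counting used strand. KIF18B, KIF20B, KIF5B, MYO1C and DYNC1LI1 have a locus of their own. KIF4B is a near-identical intronless copy of KIF4A, so the split of fragments between them is uncertain.

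The promoters of the KIF18 and KIF20 pairs are shown because the letters common to mitotic kinesins occur in all 4, although the RIP calls within each pair are opposite. RefSeq promoters of GRCh38.p14, which run from 250 bases before to 50 after the start, were available for 84 of the 101 motor genes. On either strand, the letters TTTGAA or TTTAAA, those of the cell cycle genes homology region known from promoters of mitotic genes, occurred in 12 of 13 mitotic kinesins (92.3%), in 12 of 71 other motor genes (16.9%) and in 24.3% of 27305 promoters. CCAAT, the letters bound by NF-Y, occurred in 11 of 13 (84.6%), in 23 of 71 (32.4%) and in 35.7%. Both occurred together in 10 of 13 mitotic kinesins, 7.04% of other motor genes and 9.49% of all promoters. A match describes the letters and is not evidence of binding. In the windows below, 140 bases before and 30 from the start are given on the strand of the gene, for KIF18A (chr11:28108127-28108296, minus), KIF18B (chr17:44947744-44947913, minus), KIF20A (chr5:138178972-138179141, plus) and KIF20B (chr10:89701450-89701619, plus), with the letters named above in capitals, on either strand.
KIF18A: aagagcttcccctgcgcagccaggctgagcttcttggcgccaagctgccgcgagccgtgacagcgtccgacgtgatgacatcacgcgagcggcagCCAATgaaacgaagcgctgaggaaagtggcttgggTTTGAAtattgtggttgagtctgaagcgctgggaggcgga
KIF18B: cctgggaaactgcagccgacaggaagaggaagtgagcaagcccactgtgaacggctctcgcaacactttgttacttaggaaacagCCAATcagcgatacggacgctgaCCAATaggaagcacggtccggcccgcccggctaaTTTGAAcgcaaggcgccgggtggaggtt
KIF20A: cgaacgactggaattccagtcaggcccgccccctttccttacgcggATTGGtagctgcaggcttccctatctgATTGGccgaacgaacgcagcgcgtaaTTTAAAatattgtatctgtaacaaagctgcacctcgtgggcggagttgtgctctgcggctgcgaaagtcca
KIF20B: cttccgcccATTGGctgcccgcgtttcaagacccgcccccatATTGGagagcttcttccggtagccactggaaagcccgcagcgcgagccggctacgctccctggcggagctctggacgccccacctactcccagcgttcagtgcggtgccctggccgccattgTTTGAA
CCAAT, on either strand, stands upstream of the start in each of the 4, and the homology region letters stand from 41 bases before the start in KIF20A to 25 bases after it in KIF20B.

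Levels of mitotic kinesins varied little between the inputs. The ratio of the highest to the lowest input, as FPKM + 1, had a median of 1.62 over the 12 mitotic kinesins with a mean input of at least 1 FPKM (range 1.24 to 2.78), against 2.24 over 59 motor genes and 2.79 over 15776 genes at that level. These levels cross tables that were normalized separately, 1 of Hep3B and HCT116 and the other of DU145 and SW1990, and in bulk RNA a level raised in all cells and a level raised in some of them cannot be told apart.

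Motor genes that marked 1 line in the inputs fell short of the share of all genes in Hep3B and SW1990. In HCT116 and DU145 they were near that share (3.57% and 6.67% of motor genes). An input level at least 2-fold above each of the other 3 inputs (FPKM + 1, at least 1 FPKM) was found for 2 of 56 motor genes in Hep3B against 12.3% of all genes, 2 of 56 in HCT116 against 4.67%, 4 of 60 in DU145 against 7.97% and 0 of 54 in SW1990 against 8.43%. In Hep3B they were KIF6, a kinesin-9 family member, and KIF13B. KIF6 was at 2.56 FPKM in the Hep3B input against at most 0.131 in any other. In HCT116 they were KIF21B, a kinesin that pauses microtubule growth, at 1.94 FPKM against at most 0.405, and MYO15B, listed at 4.60 against at most 1.48. The fragments and FPKM of MYO15B imply an effective length of 1.14 kb, against a median of 5.26 kb over the motor genes tested. Its locus is shared with other genes, among them RECQL5 and SAP30BP. In DU145 they were MYO3A, a myosin of actin-based protrusions of hair cells, KIFC3, a minus-end-directed transport kinesin, KIF26B and KIF3C. MYO3A was at 4.23 FPKM in the DU145 input, at 0.0454 in SW1990 and listed at 0 in Hep3B and HCT116, and KIFC3 was at 55.2 FPKM against 12.7 to 14.3. The line stood out in the RIP libraries too for KIF6 (1 of 2 in Hep3B, against 60.1% of all such genes), for KIF21B (1 of 2 in HCT116, against 55.1%) and for all 4 genes of DU145 (against 49.6%). Applied to the RIP libraries alone, the rule found 2 of 60 motor genes for Hep3B against 15.2% of all genes, 6 of 66 for HCT116 against 5.95%, 9 of 67 for DU145 against 8.70% and 3 of 62 for SW1990 against 6.09%. In SW1990 the genes furthest above the other inputs, MYO1D at 23.0 FPKM and KIF26A at 5.85, stayed under the 2-fold rule. KIFC3, KIF21B and MYO15B were also higher in RIP than in input (log2 fold changes 1.89 ± 0.20, 2.07 ± 0.21 and 2.30 ± 0.33, adjusted p = 3.64e-05, 2.8e-05 and 0.000233), and KIF6 and MYO3A did not pass (adjusted p = 0.281 and 0.342).

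**Figure D4:**
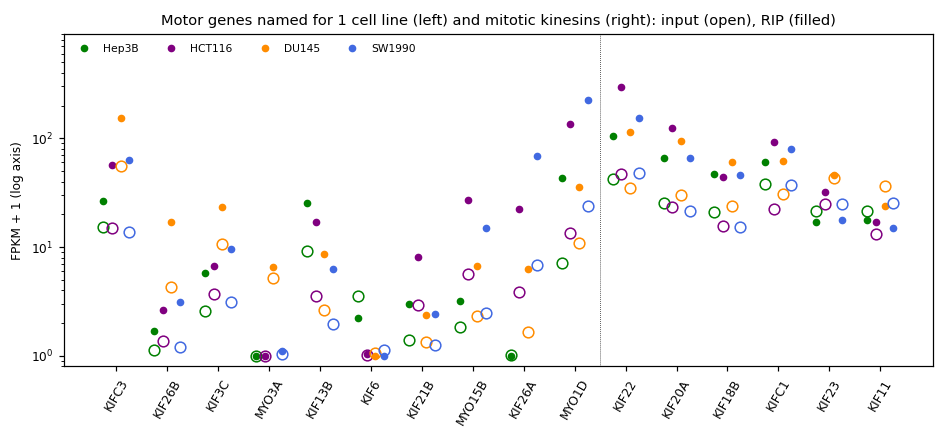
FPKM + 1 (log axis) in the input (open) and RIP (filled) library of each cell line for motor genes that stand out or come closest to it in 1 input (left) and for 6 mitotic kinesins (right). KIFC3, KIF26B, KIF3C and MYO3A are highest in DU145 on both sides, while the 4 inputs of each mitotic kinesin differ by at most 2.78-fold.

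Transcripts of motor genes are long, and fold changes rose with length over all genes. The effective length that fragments and FPKM of the inputs imply had a median of 5.26 kb over the 86 motor genes tested and 1.97 kb over all genes. Across genes, which are not independent, Spearman's rho of fold change with length was 0.34 over the motor genes and 0.27 over 19913 genes. The median log2 fold change of all genes was -0.69 under 1 kb, -0.17 from 1 to 2 kb, 0.13 from 2 to 4 kb, 0.42 from 4 to 6 kb, 0.71 from 6 to 8 kb and 1.04 above 8 kb. In the last 4 classes the motor genes had medians of 1.23 (21 genes), 0.96 (23), 0.83 (23) and 1.88 (11). Higher calls covered 10 of 11 motor genes above 8 kb (52.6% of all genes of that length), 13 of 23 from 6 to 8 kb (47.2%), 10 of 23 from 4 to 6 kb (39.0%) and 11 of 21 from 2 to 4 kb (31.5%). The 10 lower calls were all on genes under 6 kb, with 5 from 4 to 6 kb, 4 from 2 to 4 kb and 1 from 1 to 2 kb. Once the trend with length was removed, 38 of the 45 higher and 9 of the 10 lower calls held (DNAH12, KIF1B, KIF7, KIF13A, KIF24, MYO5C and MYO9A and, of the lower genes, DYNC2LI1 lost theirs), and the median log2 fold change of the motor genes was 0.81.

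**Figure D5:**
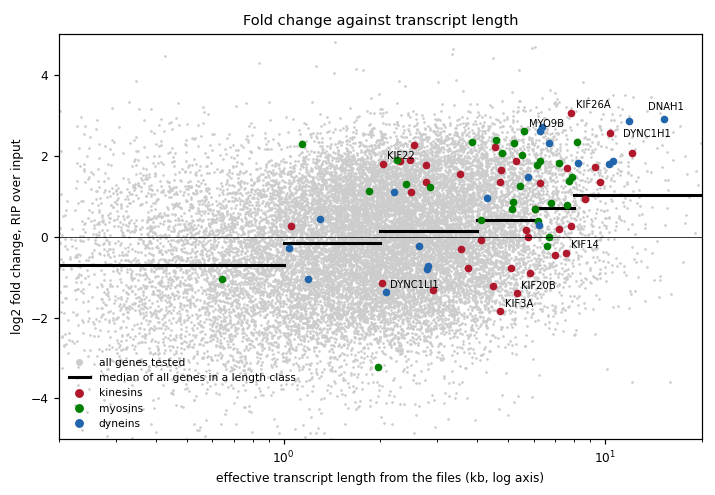
Log2 fold change of RIP over input against effective transcript length (kb, log axis) for all genes tested that lie within the axes (grey) and for kinesins, myosins and dyneins (coloured), with black bars at the median of all genes in each length class. The bars climb from -0.69 to 1.04, and DYNC1LI1, KIF20B and KIF3A lie below the bar of their class while DYNC1H1, DNAH1, MYO9B and KIF22 lie above it.

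The scale of measurement shifts values of RIP against input. The effective length implied by the files was shorter in RIP than in input, with median ratios of 0.689, 0.651, 0.692 and 0.662 over the motor genes with at least 50 fragments in both libraries, and 0.726, 0.652, 0.706 and 0.729 over all such genes. At the median gene the FPKM ratio therefore sits above the ratio of fragments. None of the 55 motor genes called had a mean FPKM ratio of the other sign, but only 4 of the 10 lower genes were lower on the FPKM scale in all 4 lines (KIF3A, KIF2A, DYNC1LI1 and DYNC2LI1). With limma on log2(FPKM + 1), KIF5B, KIF11 and DYNC1LI2 did not pass (adjusted p = 0.106, 0.305 and 0.697). For 7 genes that did not pass, the fold change was below 0 and the mean log2 FPKM ratio above 0.

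Partners of the motors went in both directions. Of 53 tested, 17 were higher (32.1%) and 22 lower (41.5%), against 26.5% and 24.9% of all genes. Their median log2 fold change was -0.08. The large dynactin subunit DCTN1 rose from 16.6, 19.9, 31.4 and 22.2 FPKM to 47.0, 195, 115 and 94.4 (1.94 ± 0.26, adjusted p = 0.000138), as DYNC1H1 did. The JNK-interacting scaffolds MAPK8IP1 and MAPK8IP3, which tie kinesin-1 to its cargo, were also higher (2.21 ± 0.20 and 1.90 ± 0.27, adjusted p = 1.65e-05 and 0.000233). Grouped by symbol after the values were seen, 5 of 5 dynein light chains tested, 3 of 5 myosin light chains and 2 of 3 calmodulins were lower and none higher, whereas the kinesin light chains KLC2, KLC3 and KLC4 were higher (1.82, 1.65 and 1.40) and none was lower. Apart from DYNLL2 (7.21 kb), the lower dynein and myosin light chains had effective lengths of 0.60 to 1.56 kb. Over all genes, 30.1% were lower under 1 kb and 27.4% from 1 to 2 kb. Of 12 dynactin and actin-capping subunits, 5 were higher and 5 lower. The dynein light chain DYNLT3 fell from 26.2, 32.4, 26.5 and 39.7 FPKM to 8.89, 3.47, 1.71 and 2.88 (-3.56 ± 0.33, adjusted p = 1.76e-05), the actin-capping subunit CAPZA2 from 105, 92.9, 79.7 and 52.7 to 25.1, 13.6, 8.87 and 7.05 (-3.16 ± 0.21, adjusted p = 1.23e-05) and calmodulin gene CALM2 from 581, 384, 395 and 550 to 227, 171, 105 and 119 (-2.11 ± 0.22, adjusted p = 2.92e-05). MYL6, the essential light chain of the same myosin II as MYH9, was lower (-0.84 ± 0.20, adjusted p = 0.00459) until the trend with length was removed (-0.07, adjusted p = 0.76). The kinesin-1 light chain KLC1 (0.47 ± 0.23, adjusted p = 0.111) and the dynein regulator PAFAH1B1 (-0.20 ± 0.18, adjusted p = 0.372) did not pass.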

How the data were processed

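RNA from RPS6 RIP and from input was sequenced for 4 cell lines in 8 libraries, made per the labels with a kit for stranded total RNA. The submitters' processing notes name CASAVA 1.8, TopHat2 2.0.9 and hg19. The counting tool, its annotation and its use of strand are not given in the sources used here. The authors deposited an FPKM per gene and library, normalized for length and depth, and an estimated count per gene, scaled by 1 factor per library, in 2 tables of 2 cell lines each that were normalized separately. The authors also deposited fold changes, p-values and q-values of 1 library against 1 library, which were not used. All per-sample columns were used.

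The members and gene lists were chosen with earlier results of these data known. The design had assumed raw counts. The estimated counts were rounded and tested with edgeR 4.0.16 (R 4.3.3) by the quasi-likelihood test with TMM, the cell line as a block, a mean of at least 10 counts and a Benjamini-Hochberg adjusted p under 0.05. The script was tested on simulated data. Cell lines pair the libraries by design, and deviations of a RIP library from its group mean correlated with those of its own input at r of 0.85 to 0.90 and with any other input at r of at most -0.03, over 19921 genes. Fragments were recovered by dividing each library's estimated counts by their common step, and 89.0% to 92.2% of values above 0 came out whole within 0.01. They gave the depth, the fragments per 1000000 (FPM) and, with FPKM, the effective length. Floors cover counting error only, and fragments are not independent molecules. Within a line there is no test.

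Genes are named that had the 6 highest and 6 lowest fold changes with an adjusted p under 0.05 and the same direction of FPKM ratio in all 4 lines (4 met this for lower), the highest mean input in each role list, a place in a fixed list (KIF5B, KIF11, KIF23, KIFC1, MYH9, MYH10, MYO1A, MYO6, DYNC1H1, DYNC2H1), the 2 furthest above the other inputs in each line, and, of the partners, DCTN1, KLC1, PAFAH1B1, MYL6 and the 3 highest and 3 lowest. Alternatives were no block, DESeq2 1.42.0, other count minimums, TMM on protein-coding genes, limma 3.58.1 on log2(FPKM + 1) and log2(FPKM + 0.1), removal of the length trend, and leaving out each line. Promoters and biotypes came from RefSeq (GRCh38.p14), and hg19 loci from the deposited tables. Figures were drawn with matplotlib 3.10.9.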

Additional observations from a re-analysis of the deposited data

Results flagged for a closer look

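In 6 of 82 motor genes searched, 1 input lay far from the other 3 by Dixon's criterion on log2(FPKM + 1), and chance alone flags about 1 in 20 groups. KIF21B was at 1.56 in HCT116 against 0.34 to 0.49 elsewhere. In DU145, KIF26B was at 2.11 against 0.18 to 0.47, KIFC3 at 5.81 against 3.78 to 3.94, and MYO3A at 2.39 against 0 to 0.06. In Hep3B, KIF6 was at 1.83 against 0.03 to 0.18. KIF5B was the only one of the 6 on the low side, at 5.20 in Hep3B against 5.93 to 6.07. Each line gave 1 input, and whether RIP effects differ between lines could not be tested.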

How the results depend on the processing

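Without the cell line as a replicate block, 1427 genes were higher and 1344 lower, 14 and 2 of them motor genes, and the 16 calls were among the 55. Motor genes called lower numbered 5 with limma on log2(FPKM + 1) and 4 with log2(FPKM + 0.1), where 3263 of all genes were lower. Leaving out 1 line gave 41 to 47 motor genes higher and 8 to 10 lower, and 4448 to 4808 genes higher and 4084 to 5083 lower over all. None of the 55 calls reversed in any alternative. Genes that had not passed changed sign as follows. DNAH14 was at 0.060 without the replicate block, at 0.27 with the length trend removed, and between -0.70 and 0.18 when 1 line was left out. MYH15 was at 0.021 with DESeq2, and between -0.73 and 0.64 when 1 line was left out. MYO6 was at 0.39 and 0.44, and PAFAH1B1 at 0.42 and 0.42, with limma on log2(FPKM + 1) and log2(FPKM + 0.1). Over the named genes, 432 values kept direction and side of the threshold, 32 lost it, 4 gained it and 10 changed sign. Motor genes above the other inputs numbered 0 in Hep3B, 0 in HCT116 and 1 in DU145 at 4-fold, and 1, 0 and 2 with at least 5 FPKM. Among RIP libraries the rule gave 6 of 66 for HCT116, 9 of 67 for DU145 and 3 of 62 for SW1990, beside 2 of 60 for Hep3B. Causes were not tested. With 1 pair per line, genes near the floor of 0.0553 to 0.0866 FPM could not be resolved.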
